A study of Mus musculus with 16 samples.

Results

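Cxcl1, Cxcl2, Cxcl3 and Cxcl5 are 4 chemokine genes whose products attract neutrophils, and their transcript levels were followed here through every treatment of a macrophage RNA-sequencing study. The genes were chosen by symbol, as 4 of the 55487 genes in the count table, and all 4 were among the 12372 genes that passed the filter on low counts. The study asked how macrophages exposed to factors from tumor cells respond to an inhibitor of Janus kinases (JAK), and whether NF-κB signaling takes part in that response. All 16 samples were bone marrow-derived macrophages (BMDMs) cultured from WT Balb/c mice aged 8 weeks, and the groups differed in what was added to the culture and, for 1 group, in the time.

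The cells of the DMEM group (n = 2) received plain medium, and those of the CM group (n = 3) received conditioned medium from 4T1 cells, a mouse mammary tumor line. The CM + Rux group (n = 3, labelled as 4 h) received CM with 0.5 μM ruxolitinib, which inhibits JAK1 and JAK2, and the CM + Rux 2 h group (n = 2) carries the same treatment name with a 2 h label. The CM + Rux + IKK-16 group (n = 3) additionally received 0.8 μM IKK-16, an inhibitor of the IκB kinases. The DMEM + Rux group (n = 3) received ruxolitinib without CM, at a dose that the labels do not give. By the study's methods, RNA was collected after 4 h of treatment that followed serum starvation, and ruxolitinib was already present during the starvation. IKK-16 was not given without ruxolitinib, and CM alone was not sampled at 2 h. The labels do not say whether samples of a group came from different animals, so the p-values below measure the spread between these samples, which may be technical.

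CXC chemokines are small secreted proteins. The 4 studied here carry the glutamate-leucine-arginine motif before the CXC pair of cysteines, act on the receptor Cxcr2 and draw neutrophils out of blood into inflamed tissue and tumors. In macrophages their transcription is known to be switched on quickly by NF-κB after signals from toll-like, interleukin-1 and TNF receptors, and their mRNAs are known to be short-lived because proteins such as tristetraprolin bind AU-rich elements in their 3′ ends.

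The 4 genes lay on the plus strand of chromosome 5 within 147 kb, each with a protein-coding transcript of 4 exons. In GRCm38, the build of the count table, Cxcl5 was at chr5:90759360-90761624, Cxcl3 at chr5:90786103-90789600, Cxcl1 at chr5:90891241-90893115 and Cxcl2 at chr5:90903871-90905938. Cxcl5 and Cxcl3 thus sat near each other at the start of the span, and Cxcl1 and Cxcl2 near each other at its end. RefSeq promoter sequence was at hand for Cxcl1, Cxcl2 and Cxcl3. The 150 bases before the first annotated start of each gene are printed because they share 1 exact 9-base κB motif, GGAATTTCC, the sequence class that NF-κB binds, which is in capitals.
Cxcl1 (GRCm38.p6 chr5:90891091-90891240, plus strand): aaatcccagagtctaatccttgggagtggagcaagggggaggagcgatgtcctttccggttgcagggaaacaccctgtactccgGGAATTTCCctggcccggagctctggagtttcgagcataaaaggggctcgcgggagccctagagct
Cxcl2 (GRCm38.p6 chr5:90903721-90903870, plus strand): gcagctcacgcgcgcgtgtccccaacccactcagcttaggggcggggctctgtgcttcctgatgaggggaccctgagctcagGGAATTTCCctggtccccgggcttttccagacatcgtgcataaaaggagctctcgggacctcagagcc
Cxcl3 (GRCm38.p6 chr5:90785951-90786100, plus strand): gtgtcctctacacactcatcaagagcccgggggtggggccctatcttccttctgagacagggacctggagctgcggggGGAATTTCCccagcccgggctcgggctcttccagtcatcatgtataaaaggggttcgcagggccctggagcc

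The motif ended 62, 88 and 64 bases before the RefSeq start of Cxcl1, Cxcl2 and Cxcl3, respectively. On both strands of the 250 bases before the start, GGAATTTCC was found in 3 of 3 of these promoters and in 0.286% of all 32851 RefSeq promoters of that length. A looser form that contains it, GGNNTTTCC, was in 3 of 3 and in 4.93% of all promoters. Searches for a STAT motif (TTCNNNGAA, 7.02% of all promoters), an AP-1 motif (TGANTCA, 6.75%), a C/EBP motif (TTGCNNAA, 9.56%) and a cyclic AMP response element (TGACGTCA, 1.55%) matched 0 of 3, and TATAAA (12.4%) matched Cxcl3. These matches describe letters in a window and say nothing of binding in these cells.

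The 3′ untranslated regions of the 4 genes, taken from their transcripts in the consensus coding sequence (CCDS) set, were 592, 734, 645 and 1111 bases long for Cxcl1, Cxcl2, Cxcl3 and Cxcl5. They held 7, 11, 5 and 5 copies of ATTTA, the core of AU-rich elements, against a median of 1 over 19759 genes, whose median region was 917 bases long. At least as many copies were held by 12.8% of genes for Cxcl1, 5.22% for Cxcl2 and 20.7% for both Cxcl3 and Cxcl5. The longer form TTATTTATT, which contains ATTTA, occurred 2 times in Cxcl1, 4 times in Cxcl2 and 1 time in Cxcl3, and 7.28% of genes held at least 1 copy. The Cxcl2 and Cxcl3 transcripts shared 61 stretches of 50 bases, which is 5.75% and 6.31% of each, but no stretch of 150 bases, the read length.

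Library totals ran from 18449388 to 46215853 counts. Levels are CPM, the read counts of a gene set against the library total, after scaling each total by the relative log expression (RLE) method, a step that raised the median log2 fold change of all genes by 0.31 where CM was set against DMEM, by 0.30 where CM + Rux was set against DMEM + Rux, and lowered it (-0.11) where IKK-16 was set against CM. Each of the 10 macrophage markers exceeded 1 CPM in some sample, and the list summed to between 40550 and 57892 CPM. Of 13 neutrophil markers, 11 stayed under 1 CPM in every sample, with Cxcr2 among them and with Ly6g and Retnlg at 0 throughout. The whole list summed to 9.40 to 10.2 CPM in CM and 2.42 to 3.64 in DMEM, most of it from Mmp8 (means of 7.37 and 2.64 CPM). The 10 epithelial markers, which would mark tumor cells, all stayed under 1 CPM, with Krt14 and Krt5 at 0 throughout, and summed to 0.895 to 1.56 CPM in CM and 0.0409 to 0.118 in DMEM. The 4 chemokine genes together summed to 3206 to 4821 CPM in CM and 23.3 to 71.6 CPM in DMEM. The part of either marker list in the chemokine levels was not tested. The fibroblast and endothelial list (33.8 to 54.3 CPM) and the T and B cell list (5.08 to 13.5 CPM) ranged over all samples.

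First, macrophages with and without CM were compared, which asks what soluble factors from the tumor cells do to these genes. CM increased all 4 transcripts, by 40.2-fold for Cxcl2 and by 98.1-fold or more for the others. In edgeR's quasi-likelihood fit over all 12372 genes, a gene was called when its Benjamini-Hochberg adjusted p was under 0.05 and its log2 fold change beyond 0.5. By that rule 4 of 4 chemokine genes were higher in CM, beside 20.9% of all genes tested. For each of them every CM sample was above every DMEM sample, as was found for 37.8% of all genes. In bulk RNA, a change in the number of expressing cells and a change in RNA per cell cannot be told apart.

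Cxcl1, also known as KC, was at 20.0 and 5.52 CPM in the DMEM samples and at 1144, 1605 and 1064 CPM in the CM samples. The log2 fold change was 6.62 (SE 0.508, adjusted p = 1.3e-07, edgeR). Cxcl2, also known as MIP-2, was at 49.8 and 17.1 CPM in DMEM and at 1239, 1670 and 1147 CPM in CM. Its log2 fold change of 5.33 (SE 0.424, adjusted p = 1.9e-07, edgeR) went with the highest level of the 4 in DMEM. For both genes DMEM replicate 1 was higher than replicate 2, and every CM sample was far above either.

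Cxcl3, the close relative of Cxcl2, was nearly silent in DMEM, at 1.71 and 0.654 CPM, and reached 989, 1466 and 946 CPM in CM. The log2 fold change was 9.83 (SE 0.509, adjusted p = 4.3e-09, edgeR), or 911-fold. Cxcl5, a chemokine better known from epithelial cells and also called LIX, rested on 5 and 1 reads in the DMEM samples, which is 0.148 and 0.0409 CPM, and reached 65.0, 80.6 and 48.4 CPM in CM. Its log2 fold change was 9.25 (SE 0.713, adjusted p = 1.4e-07, edgeR). The 6 reads summed over DMEM have an exact Poisson 95% interval of 2.20 to 13.1 reads, which covers counting error only, so the size of the Cxcl5 fold is loosely known. Cxcl3 and Cxcl5 were thus the least expressed without CM and had the largest fitted folds.

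**Figure D1:**
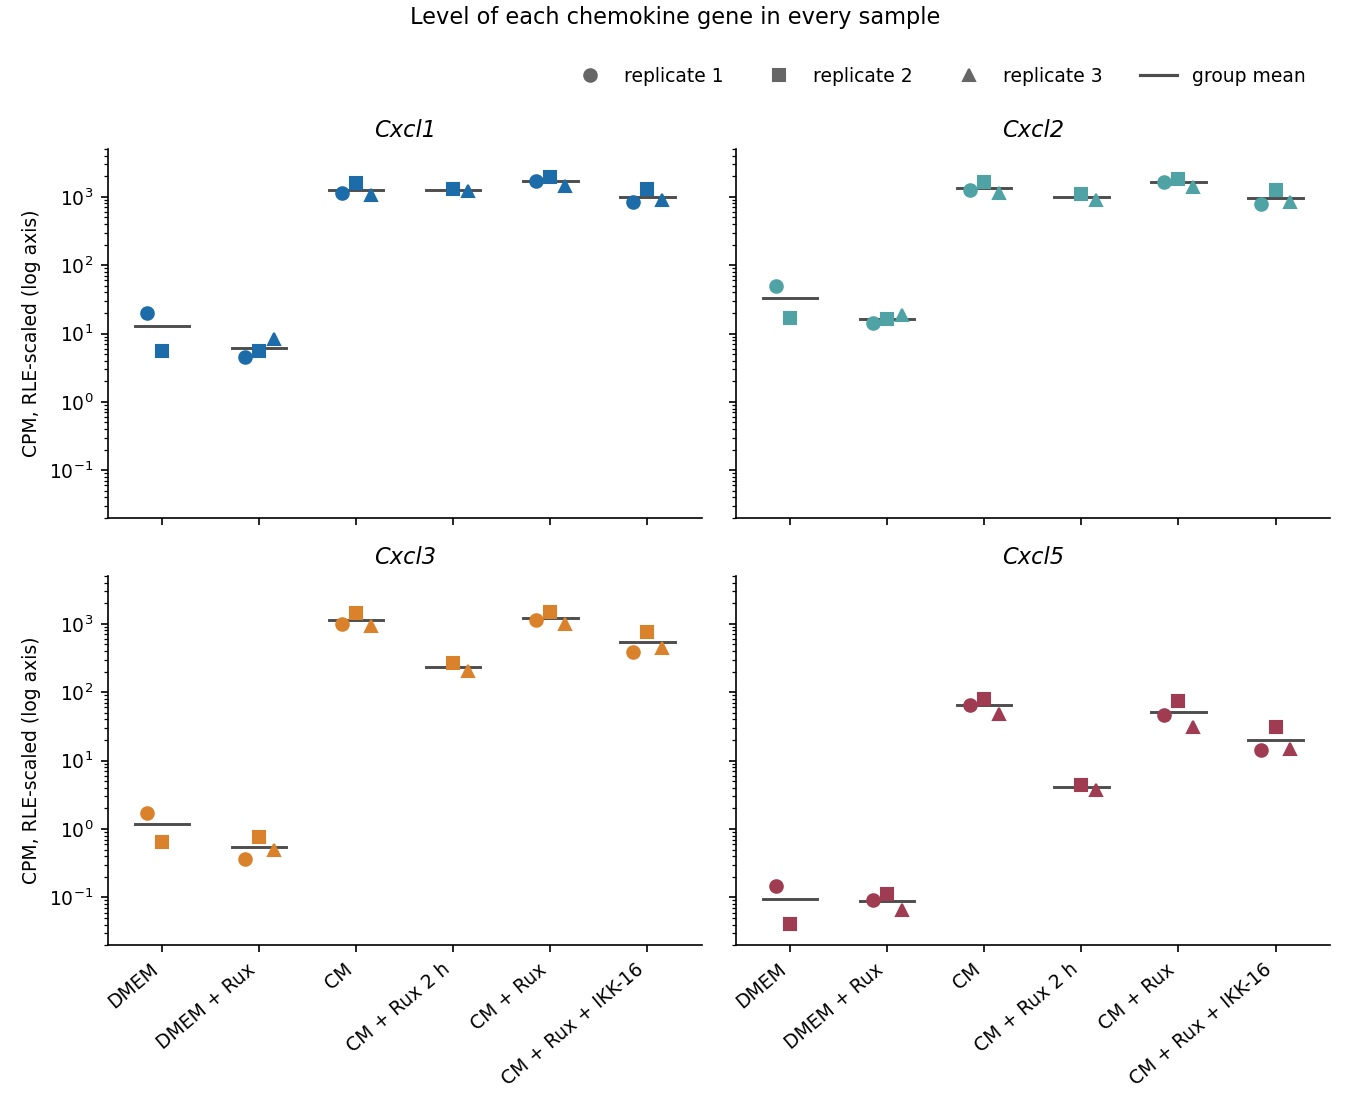
CPM after RLE scaling on a log axis for each of the 4 genes, with 1 point per sample, the replicate number by shape, and a bar at the group mean. Every CM sample lies above both groups without CM for each gene, and Cxcl3 and Cxcl5 are lower in the CM + Rux 2 h samples (270 and 202 CPM, and 4.47 and 3.68 CPM) than in the other CM samples. Of all genes, 37.8% have every CM sample above every DMEM sample.

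The difference was also present under ruxolitinib. In CM + Rux against DMEM + Rux, 4 of 4 chemokine genes were higher, beside 22.3% of all genes tested. Cxcl1 rose from 4.52, 5.64 and 8.44 CPM in DMEM + Rux to 1678, 1966 and 1417 CPM in CM + Rux, and Cxcl2 rose from 14.2, 16.2 and 19.0 CPM to 1660.0, 1839 and 1373 CPM. Cxcl3 rose from 0.369, 0.758 and 0.485 CPM to 1127, 1503 and 984 CPM. Cxcl5 had 2, 5 and 2 reads in DMEM + Rux, at 0.0923, 0.112 and 0.0647 CPM, against 46.0, 75.2 and 31.2 CPM in CM + Rux. The log2 fold changes were 8.08, 6.62, 11.02 and 9.05 for Cxcl1, Cxcl2, Cxcl3 and Cxcl5, with edgeR adjusted p between 2.7e-10 and 1.8e-08. With total counts alone, without RLE scaling, the 4 genes kept their direction and calls in both comparisons, while the genes called in CM against DMEM went from 2584 higher and 2980 lower (24.1%) to 1536 higher and 4605 lower.

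Next, the levels of the 4 genes were set side by side per transcript length, as CPM per kilobase (RPKM). Using all exons of a gene merged, the CM means were 678 ± 156 for Cxcl1, 654 ± 135 for Cxcl2, 324 ± 82.5 for Cxcl3 and 34.7 ± 8.64 for Cxcl5 (SD, n = 3). The merged lengths of Cxcl1, Cxcl2 and Cxcl3 are 1875, 2068 and 3498 bases, as long as each whole gene, because annotated transcripts keep introns. Their CCDS transcripts are shorter, most of all for Cxcl3. Using CCDS transcripts of 953, 1109, 1016 and 1575 bases, the RPKM in CM were 1333 ± 306, 1219 ± 252, 1116 ± 284 and 41.1 ± 10.2 in the same order (SD, n = 3). On that scale the means of Cxcl1, Cxcl2 and Cxcl3 differed by less than their SD over samples, and Cxcl5 was the lowest on either scale. Within each CM sample, however, the order was Cxcl1, Cxcl2 and Cxcl3. Their shares of the summed RPKM of the 4 genes were 35.9% to 36.0%, 32.1% to 33.5% and 29.2% to 30.8%.

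Across treatments, the CPM of Cxcl1 were in the order CM + Rux (1687 ± 275, SD, n = 3), CM (1271 ± 292, n = 3), CM + Rux 2 h (1258 ± 73.6, n = 2), CM + Rux + IKK-16 (1003 ± 245, n = 3), DMEM (12.8 ± 10.2, n = 2) and DMEM + Rux (6.20 ± 2.02, n = 3). Cxcl2 followed the same order, at 1624 ± 235, 1352 ± 279, 992 ± 138, 952 ± 263, 33.4 ± 23.1 and 16.4 ± 2.39. Samples of neighbouring groups in these orders overlapped among the groups with CM, except CM and 2 h for Cxcl2, and between DMEM and DMEM + Rux. In CM the means of Cxcl1, Cxcl2 and Cxcl3 ranked 90, 79 and 107 among the 12372 genes, and that of Cxcl5 ranked 3382.

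Cxcl3 stood at 1205 ± 268 in CM + Rux, 1134 ± 289 in CM, 534 ± 202 with IKK-16 and 236 ± 48.5 at 2 h (SD, same n). Cxcl5 was at 64.7 ± 16.1 in CM, 50.8 ± 22.4 in CM + Rux, 20.0 ± 9.59 with IKK-16 and 4.07 ± 0.560 at 2 h. For these 2 genes the 2 h samples were the lowest of all samples with CM, and the IKK-16 samples were next, whereas CM and CM + Rux overlapped.

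The make-up of the chemokine pool differed with CM. On the CCDS scale Cxcl2 was 66.3% and 70.5% of the summed RPKM of the 4 genes in DMEM and 64.6% to 71.3% in DMEM + Rux, but 32.1% to 33.5% in CM. Cxcl3 went from 1.80% to 3.50% in the samples without CM to 29.2% to 30.8% in CM. Cxcl1 was 26.4% to 33.5% without CM and 35.9% to 36.0% in CM. The ratio of Cxcl2 to Cxcl1 CPM was 2.25 to 3.14 in the 5 samples without CM and 0.742 to 1.08 in the 11 samples with CM. These shares and ratios are descriptions and were not tested.

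**Figure D2:**
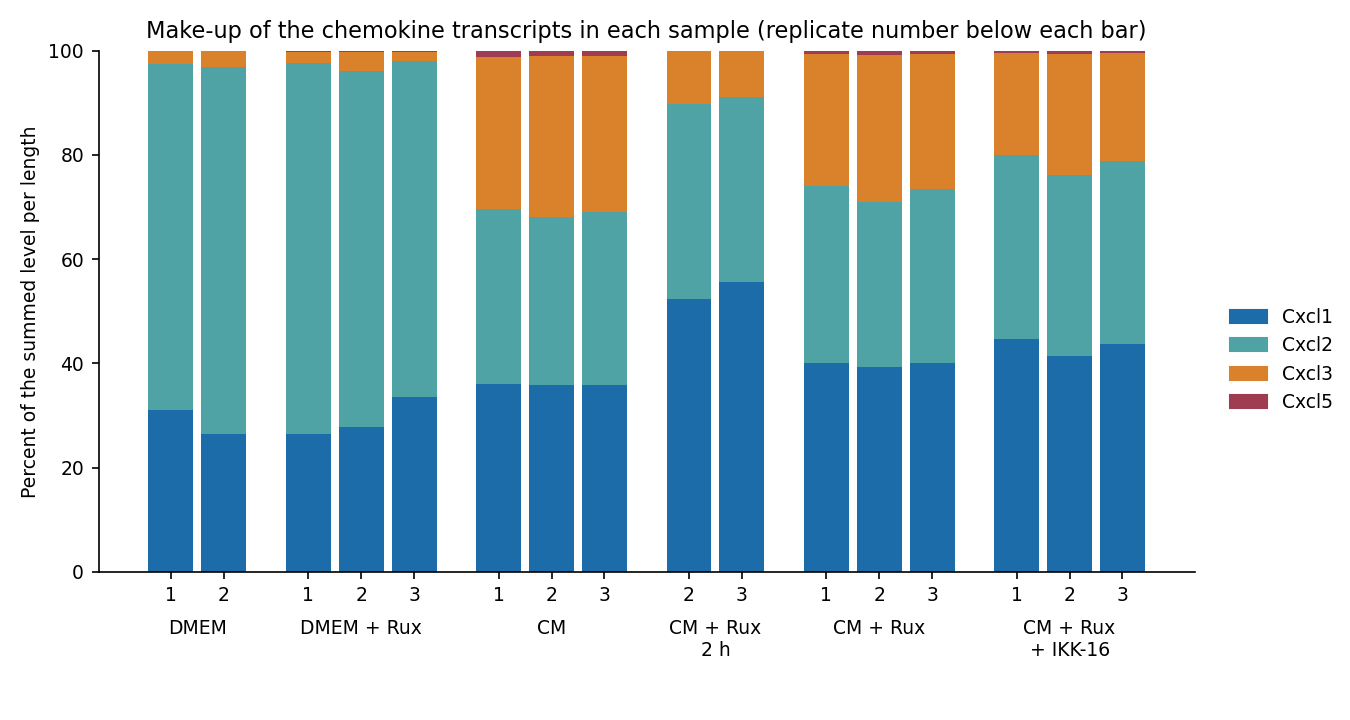
Stacked bars of the share, in percent, of each gene in the summed level per CCDS transcript length, with 1 bar per sample grouped by treatment. Cxcl2 makes up 64.6% to 71.3% of the pool in the 5 samples without CM, and Cxcl3 is largest in CM (29.2% to 30.8%) and smallest among the CM samples at 2 h (8.74% and 10.1%).

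Ruxolitinib was then added to CM to ask what JAK inhibition does to these genes in tumor-conditioned macrophages. None of the 4 passed the test in edgeR without a block, at the adjusted or at the unadjusted threshold, and 0 of 4 were called in DESeq2. In the same fit 1.20% of all genes were called higher and 2.13% lower, and with the replicate number as a block, 305 and 440 genes were called in place of 149 and 263. The log2 fold changes with their 95% intervals were 0.41 (-0.32 to 1.14) for Cxcl1, 0.26 (-0.39 to 0.92) for Cxcl2, 0.09 (-0.51 to 0.69) for Cxcl3 and -0.34 (-1.04 to 0.35) for Cxcl5. With the replicate number as a block, which pairs these samples, the Cxcl5 value was -0.39 (95% interval -0.72 to -0.07, unadjusted p = 0.015, adjusted p = 0.096, edgeR), and it was still not called. The blocked intervals of Cxcl1 (-0.29 to 1.11), Cxcl2 (-0.37 to 0.91) and Cxcl3 (-0.26 to 0.45) held 0.

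The 3 CM + Rux samples overlapped with the 3 CM samples for each gene. Between samples of the same replicate number, Cxcl1 was higher with ruxolitinib in 3 of 3 pairs (log2 differences of 0.55, 0.29 and 0.41), as was Cxcl2 (0.42, 0.14 and 0.26). Cxcl5 was lower in 3 of 3 pairs (-0.50, -0.10 and -0.63), and Cxcl3 lay close to 0 (0.19, 0.04 and 0.06). The share of all genes that went 1 way in 3 of 3 pairs was not counted, so these pairs show no effect of ruxolitinib by themselves. The sign of the fitted Cxcl3 difference turned to -0.10 without CM + Rux replicate 2, to -0.03 without CM replicate 3 and to -0.002 without CM replicate 1. The CPM of Cxcl5 per Cxcl1 was 0.0455 to 0.0568 in CM and 0.0220 to 0.0383 in CM + Rux, without overlap. This ratio was not tested, and the share of other gene pairs without overlap was not counted. Of single genes, 9.66% did not overlap between these groups in the higher direction and 9.57% in the lower. The neutrophil marker list summed to 5.98 to 7.47 CPM in CM + Rux, below its 9.40 to 10.2 CPM in CM, and its part in these values was not tested. Most of that sum was Mmp8, at means of 4.43 CPM in CM + Rux and 7.37 CPM in CM, which was not called.

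In macrophages without CM the same inhibitor went with lower values of 3 genes, which rested on 1 sample. The log2 fold changes of DMEM + Rux against DMEM were -1.05 for Cxcl1, -1.03 for Cxcl2, -1.10 for Cxcl3 and -0.15 for Cxcl5, with edgeR adjusted p of 0.73, 0.43, 1 and 1. No member was called (Cxcl1 and Cxcl2 passed at an unadjusted p under 0.05, and 0 of 4 were called in DESeq2), beside 0.970% of all genes called lower. The DMEM + Rux samples were all below DMEM replicate 1, whereas replicate 2 lay within their range for Cxcl1, Cxcl2 and Cxcl3 and below it for Cxcl5. Without DMEM replicate 1 the values were 0.18 for Cxcl1, -0.06 for Cxcl2 and -0.19 for Cxcl3, and without DMEM replicate 2 Cxcl1 and Cxcl2 were at -1.68 and -1.59 and passed the test (adjusted p = 0.02 and 0.0096, edgeR).

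The difference between the ruxolitinib effects in CM and in DMEM was tested as an interaction. It was 1.46 for Cxcl1, 1.29 for Cxcl2, 1.19 for Cxcl3 and -0.20 for Cxcl5 on the log2 scale, with edgeR adjusted p of 0.31, 0.30, 0.66 and 1. No member was called (Cxcl1 and Cxcl2 had an unadjusted p of 0.014 and 0.012, and DESeq2 called 0 of 4), beside 0.234% of all genes called higher. With the replicate number as a block, 247 genes in place of 29 were called higher, and no member was. The result depended on the DMEM samples, since without replicate 2 Cxcl1 and Cxcl2 were called (2.08 and 1.86, adjusted p = 0.024 and 0.021, edgeR), and without replicate 1 the values were 0.23 and 0.32.

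The IκB kinase inhibitor was added on top of CM and ruxolitinib to ask which genes depend on canonical NF-κB signaling. Cxcl3 and Cxcl5 fell, by 2.25-fold and 2.56-fold, and for all 4 genes every CM + Rux + IKK-16 sample was below every CM + Rux sample. By the call rule 2 of 4 were lower, beside 3.66% of all genes tested, and samples that did not overlap in this direction were found for 17.1% of all genes. Cxcl3 was at 388, 765 and 450 CPM with IKK-16, against 1127, 1503 and 984 CPM in CM + Rux. Its log2 fold change was -1.17 (SE 0.274, adjusted p = 0.011, edgeR). Cxcl5 was at 14.2, 31.0 and 14.7 CPM, against 46.0, 75.2 and 31.2 CPM, with a log2 fold change of -1.36 (SE 0.321, adjusted p = 0.012, edgeR). The gap between the groups was narrow for Cxcl5, where the highest IKK-16 sample was at 31.0 CPM and the lowest CM + Rux sample at 31.2 CPM.

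Cxcl1 was at 834, 1283 and 892 CPM with IKK-16 and Cxcl2 at 772, 1254 and 830 CPM. The log2 fold changes were -0.75 (95% interval -1.48 to -0.02, adjusted p = 0.15) for Cxcl1 and -0.77 (-1.43 to -0.12, adjusted p = 0.098) for Cxcl2 in edgeR, so neither was called. DESeq2 called Cxcl2 as well (adjusted p = 0.044), and without the filter on low counts edgeR called both. The group means of Cxcl1, Cxcl2, Cxcl3 and Cxcl5 were 59.4%, 58.6%, 44.3% and 39.3% of those in CM + Rux. Within replicate numbers each gene was lower with IKK-16 in 3 of 3 pairs, from -0.62 to -1.01 for Cxcl1, -0.55 to -1.11 for Cxcl2, -0.97 to -1.54 for Cxcl3 and -1.09 to -1.70 for Cxcl5. How many of all genes were lower in 3 of 3 pairs was not counted. The call of Cxcl3 was lost without CM + Rux + IKK-16 replicate 1 (-0.99, adjusted p = 0.058) or replicate 3 (-1.06, adjusted p = 0.052). The call of Cxcl5 was lost without either of the same samples (-1.16 and -1.18, adjusted p = 0.063 and 0.055) or without CM + Rux replicate 2 (-0.96, adjusted p = 0.058), all in edgeR. With only the groups compared in the model Cxcl1 was called (adjusted p = 0.048) and Cxcl5 was not (adjusted p = 0.075). These refits did not pair the samples. With the replicate number as a block, Cxcl3 (-1.20, SE 0.156, adjusted p = 1.1e-04) and Cxcl5 (-1.35, SE 0.147, adjusted p = 3.0e-05) were called in edgeR. In that blocked fit Cxcl1 (adjusted p = 0.083) and Cxcl2 (adjusted p = 0.055) were not called.

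The same 3 IKK-16 samples were set against CM alone. Cxcl3 and Cxcl5 were lower, at 47.1% and 30.9% of the CM means, and 2 of 4 members were thus called beside 6.13% of all genes. The log2 fold changes were -1.09 (SE 0.273, adjusted p = 0.012) and -1.70 (SE 0.324, adjusted p = 0.0021) in edgeR, and neither gene overlapped between the groups, as was found in this direction for 19.7% of all genes. Cxcl1 and Cxcl2 overlapped with CM and were not called, at -0.34 (95% interval -1.07 to 0.39) and -0.51 (-1.16 to 0.15). The call of Cxcl3 was lost without CM replicate 2 (-0.86, adjusted p = 0.056), or without CM + Rux + IKK-16 replicate 1 (-0.90, adjusted p = 0.058) or replicate 3 (-0.98, adjusted p = 0.052), whereas that of Cxcl5 was kept in each case (adjusted p of at most 0.014). With the replicate number as a block, both were called in edgeR, Cxcl3 at -1.11 (adjusted p = 1.2e-04) and Cxcl5 at -1.75 (adjusted p = 1.6e-06). The neutrophil marker list summed to 3.48 to 6.84 CPM with IKK-16, overlapping with CM + Rux but not with CM, and its part was not tested. Most of that sum was Mmp8, at a mean of 3.40 CPM with IKK-16. Even the lowest value with IKK-16 stayed far above DMEM, at 388 against at most 1.71 CPM for Cxcl3 and at 14.2 against at most 0.148 CPM for Cxcl5.

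**Figure D3:**
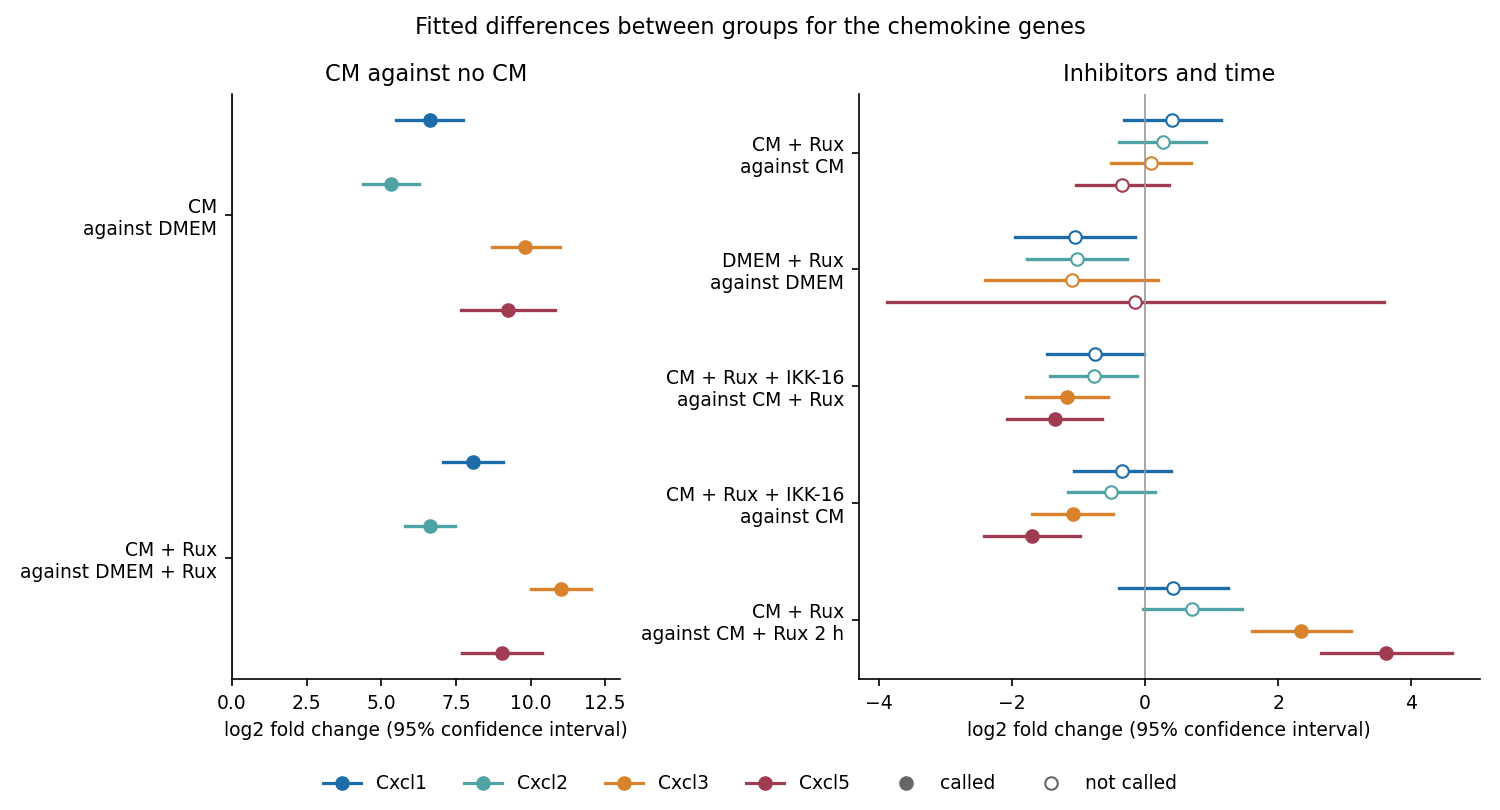
Fitted log2 fold changes (points) with 95% confidence intervals (lines) of the 4 genes, for CM against no CM on the left and for the inhibitors and time on the right, with filled points for called genes. Comparisons in a panel share samples. Cxcl3 and Cxcl5 are called in both IKK-16 comparisons and between 2 h and 4 h, and Cxcl1 and Cxcl2 are not called in these.

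The comparisons above share samples and are not independent of each other. The samples labelled 2 h and 4 h of CM with ruxolitinib were compared to follow each gene over time. At 2 h the means of Cxcl1, Cxcl2, Cxcl3 and Cxcl5 were 74.6%, 61.1%, 19.6% and 8.02% of those at 4 h. Cxcl3 and Cxcl5 rose by 5.10-fold and 12.3-fold in the fit, and Cxcl1 and Cxcl2 were not called. By the call rule 2 of 4 were higher at 4 h, beside 10.7% of all genes, and samples that did not overlap in this direction, as seen for all 4, were found for 31.2% of all genes. Cxcl3 was at 270 and 202 CPM at 2 h, and its log2 fold change was 2.35 (SE 0.332, adjusted p = 1.2e-04, edgeR). Cxcl5 was at 4.47 and 3.68 CPM at 2 h, with a log2 fold change of 3.62 (SE 0.440, adjusted p = 3.6e-05, edgeR). Both calls held without each sample in turn.

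Cxcl1 was at 1310 and 1206 CPM at 2 h, 99.0% of the CM mean. Its log2 fold change from 2 h to 4 h was 0.42 (95% interval -0.40 to 1.25, adjusted p = 0.39, edgeR). Cxcl2 was at 1089 and 895 CPM, 73.4% of the CM mean, and its log2 fold change was 0.71 (-0.03 to 1.45, adjusted p = 0.11, edgeR). It was called without the filter on low counts (adjusted p = 0.011) and with only these groups in the model (adjusted p = 0.017). At 2 h Cxcl3 stood at 20.8% and Cxcl5 at 6.30% of their CM means. The 2 h samples carry replicate numbers 2 and 3 only, and the dendritic and mast cell marker list summed to 8.69 to 12.8 CPM there against 2.29 to 2.49 CPM at 4 h. Most of that sum was Zbtb46, at means of 10.1 CPM at 2 h and 1.89 CPM at 4 h. The other 9 of the 10 genes stayed under 1 CPM in every sample. The part of the difference in these results was not tested.

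The ratio of Cxcl3 to Cxcl1 CPM was 0.206 and 0.167 at 2 h, 0.672 to 0.764 in CM + Rux, 0.466 to 0.596 with IKK-16 and 0.865 to 0.914 in CM, so that these 4 groups did not overlap. The ratio of Cxcl5 to Cxcl1 was 0.00341 and 0.00305 at 2 h, 0.0220 to 0.0383 in CM + Rux, 0.0164 to 0.0242 with IKK-16 and 0.0455 to 0.0568 in CM. Here the IKK-16 and CM + Rux samples overlapped. The ratios were not tested, and how often other gene pairs do not overlap was not counted. Over the 11 samples with CM, the log2 CPM of Cxcl1 followed that of Cxcl2 (Pearson's r = 0.92) and that of Cxcl3 followed Cxcl5 (r = 0.98), while Cxcl1 went less with Cxcl3 (r = 0.57) or Cxcl5 (r = 0.44). These points share libraries and fall into 4 treatment groups, so the values are descriptive.

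**Figure D4:**
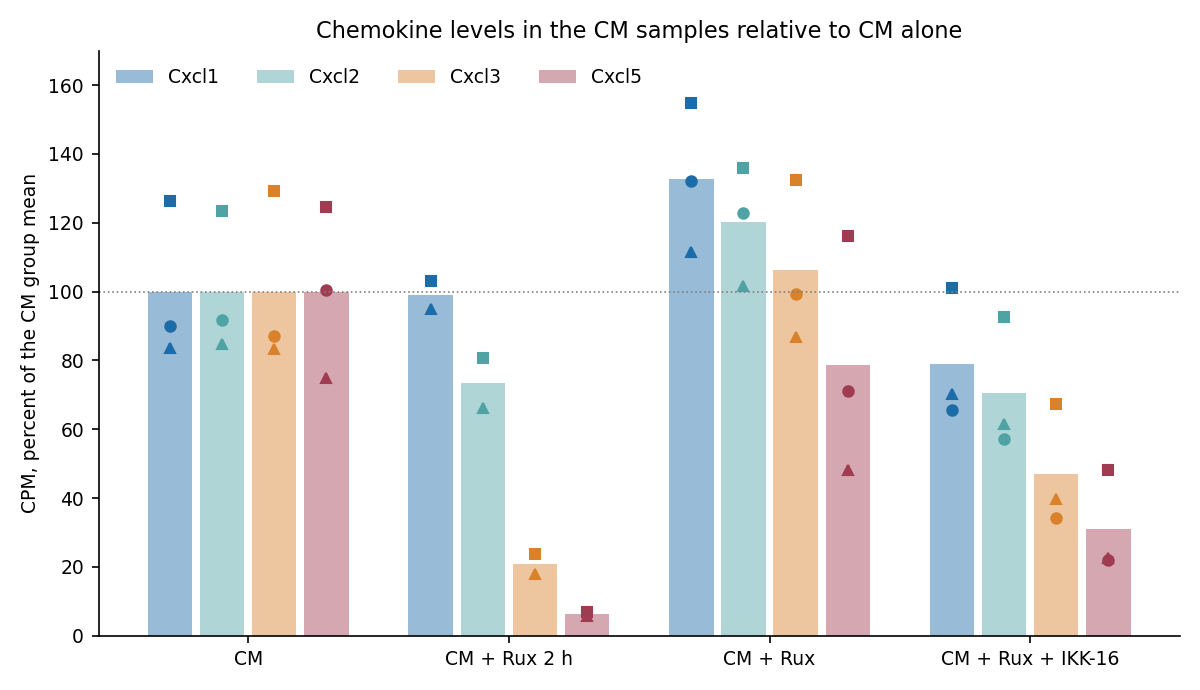
CPM of each gene in the 11 samples with CM as a percent of the CM group mean, with bars for group means and points for samples (circle, square and triangle for replicates 1, 2 and 3). At 2 h the bars stand at 99.0%, 73.4%, 20.8% and 6.30% for Cxcl1, Cxcl2, Cxcl3 and Cxcl5, and with IKK-16 at 78.9%, 70.4%, 47.1% and 30.9%.

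The neighbours of the 4 genes were examined next. In the 500 kb on either side of the span, 19 protein-coding genes start and 11 were tested. Of the 7 tested genes that are no members, 3 were higher in CM than in DMEM and 2 were lower, beside 20.9% and 24.1% of all genes. Ppbp and Pf4, among the higher ones, are also on the list of other CXC ligands below. The higher ones were Ppbp (0.311 to 3.95 CPM, log2 fold change 3.66, adjusted p = 5.0e-07) and Pf4 (7.14 to 63.7 CPM, 3.17, adjusted p = 1.3e-05), both CXC ligands known from platelets that lie between Cxcl5 and Cxcl3, and Mthfd2l (4.19 to 15.9 CPM, 1.91, adjusted p = 2.4e-07), a mitochondrial folate enzyme beside Cxcl2, all in edgeR. Ppbp and Pf4 were also higher at 4 h than at 2 h, by 3.24 and 1.67 on the log2 scale (adjusted p = 1.3e-05 and 0.0029, edgeR), as was Mthfd2l by 0.88 (adjusted p = 3.9e-04, edgeR). Between these times 10.7% of all genes were called higher. With IKK-16 added to CM + Rux none of the 7 was called, beside 4.07% of all genes higher and 3.66% lower. With IKK-16 against CM alone, Ppbp was lower (-1.10, adjusted p = 0.0027) and Afp higher (0.998, adjusted p = 0.0098), in edgeR. In that comparison 6.13% of all genes were lower and 6.60% higher. Cxcl15, inside the span, was at 0 in every sample. The lower genes were Gm9958 (log2 fold change -0.88) and Afp (-0.67), which encodes alpha-fetoprotein.

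**Figure D5:**
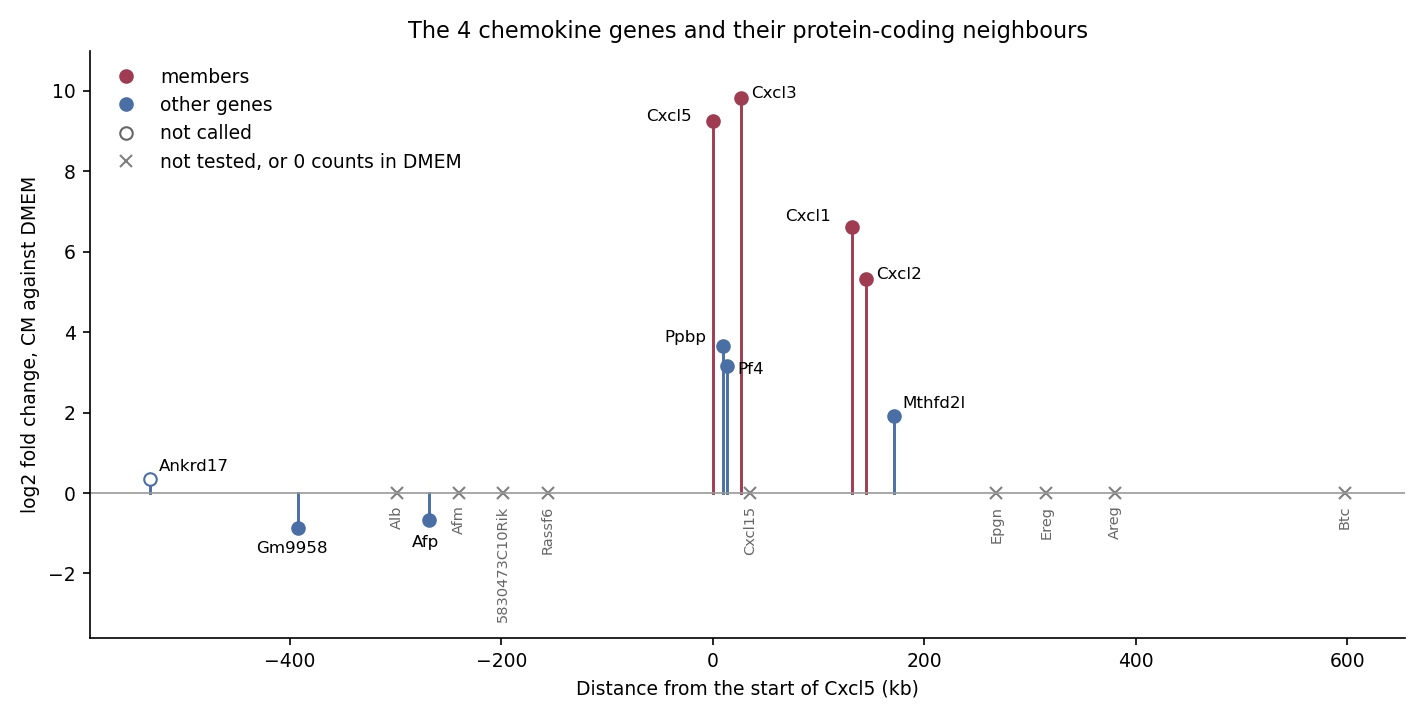
Fitted log2 fold change of CM against DMEM for protein-coding genes around the chemokine span, by distance in kb of each gene's start from that of Cxcl5. Crosses mark genes that were not tested or had no read in DMEM. The 4 members (5.33 to 9.83) stand above Ppbp (3.66), Pf4 (3.17) and Mthfd2l (1.91).

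Other genes of the pathway were then counted in lists of ligands, receptors, signaling genes and mRNA-binding proteins. Beside CM against DMEM, where 20.9% of all genes were higher and 24.1% lower and the median log2 fold change of all genes was -0.005, 4 of 5 tested genes among the other CXC ligands were higher (median 2.06), led by Ppbp. Cxcl10, a ligand of Cxcr3 induced by interferon, was not called there (-1.18, adjusted p = 0.14) and fell in DMEM + Rux from 16.3 to 0.280 CPM (-5.81, adjusted p = 0.0024, edgeR). Both tested CXC receptors were lower in CM, Cxcr4 by -2.14 and Cxcr3 by -1.93 (adjusted p = 7.4e-07 and 0.0015, edgeR). Cxcr2, the receptor of the 4 chemokines, and Cxcr1 did not pass the filter, with group means of at most 0.0795 and 0.0276 CPM.

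Of 14 receptors and adaptors upstream, 9 were higher and 1 was lower in CM (median 0.87), or 8 and 2 without RLE scaling. The interleukin-1 receptor Il1r1 rose most, from 0.923 to 18.0 CPM (4.33, adjusted p = 2.3e-06, edgeR), and the kinase Irak1 fell by 0.66 (adjusted p = 6.5e-07, edgeR). Of 14 NF-κB subunits, kinases and inhibitors, 12 were higher and none lower (median 1.63), or 9 higher without RLE scaling, with the NF-κB inhibitor Tnfaip3 at the front (65.2 to 530 CPM, 3.02, adjusted p = 1.2e-07, edgeR). Of 8 genes that act on chemokine mRNA, 4 were higher (median 0.63). The largest of these changes was in Zc3h12a (39.6 to 537 CPM, 3.76, adjusted p = 8.8e-10, edgeR), which encodes the endonuclease regnase-1.

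S100a8 and S100a9 are on both the neutrophil marker list and the list of other factors that act on neutrophils. Of the 13 tested genes of the latter, 12 were higher in CM (median 5.86, also with 3 genes that had no read in DMEM at their lower bound). Il6 had no read in either DMEM sample and 219 CPM in CM, at least 4260-fold higher when 3 reads over the DMEM group are taken as the floor. Csf2, which was at 0.0618 CPM in CM, was the one not called.

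With ruxolitinib in CM, 1.20% of all genes were called higher and 2.13% lower. Of the 13 other neutrophil-acting factors 2 rose, Csf2 (3.76, from 0.0618 to 0.962 CPM, adjusted p = 0.0078) and Lif (2.41, from 4.92 to 26.7 CPM, adjusted p = 0.016), in edgeR. Of the NF-κB list 0 of 14 were called in edgeR or DESeq2, with a median of 0.21 against 0.007 for all genes. Regardless of the size of the change, 2 of the 14 had a positive value with an adjusted p under 0.05, beside 225 of all 12372 genes. These 2, looked up after the values were seen, were Rel (0.49, adjusted p = 0.029) and the inhibitor gene Nfkbib (0.39, adjusted p = 0.034), in edgeR, both short of the fold change threshold. At an unadjusted p under 0.05 there were 4. The share of all genes at that unadjusted threshold was not counted, so the 4 do not set the list apart. Cxcr3 rose (1.86, adjusted p = 0.016), the lipopolysaccharide receptor gene Tlr4 fell (-1.04, adjusted p = 2.4e-04), and Zfp36l1, a relative of tristetraprolin, fell (-1.15, adjusted p = 0.045), all in edgeR.

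With IKK-16 added to CM + Rux, where 3.66% of all genes were lower and the median of all genes was -0.002, 9 of the 13 other neutrophil-acting factors fell (median -1.59), the largest change being in Csf2 (-3.39, from 0.962 to 0.0883 CPM, adjusted p = 0.0037, edgeR). Of the NF-κB list 6 of 14 fell (median -0.50), or 5 without RLE scaling, with the largest change in Tnfaip3 (-1.02, from 675 to 333 CPM, adjusted p = 0.0026, edgeR). Of the mRNA-acting genes 1 of 8 fell, Zfp36 (-1.16, from 613 to 274 CPM, adjusted p = 0.017, edgeR), which encodes tristetraprolin. Of the other CXC ligands 0 of 5 were called in edgeR or DESeq2 and 0 passed at an unadjusted p under 0.05 whatever the size (median -0.39). Beside 4.07% of all genes higher, Cxcr4 rose (1.47, from 110 to 304 CPM, adjusted p = 2.5e-04, edgeR), as did Tlr4 (0.68, adjusted p = 0.0026, edgeR).

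From 2 h to 4 h of CM with ruxolitinib, 7 of the 13 other neutrophil-acting factors rose and 2 fell (median 1.32, against 0.03 for all genes). Il6 rose most (2.87, from 42.9 to 314 CPM, adjusted p = 0.0028), and Csf2 and Lif fell (-2.59 and -1.38, adjusted p = 6.3e-04 and 0.047), in edgeR. Beside 10.7% of all genes higher and 12.6% lower, 1 of 14 genes of the NF-κB list rose, Ikbkg (0.66), and 3 fell, or 2 without RLE scaling, with the largest change in the subunit gene Rel (-0.93, from 590 to 309 CPM, adjusted p = 9.2e-05, edgeR). The list median was -0.36, whereas that of the other CXC ligands, of which 3 of 5 rose, was 1.67.

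With IKK-16 against CM alone, where 6.13% of all genes were lower, 6 of the 13 other neutrophil-acting factors fell (median -1.51), the largest change being in Lcn2, which encodes the neutrophil granule protein lipocalin 2 (-3.90, from 13.7 to 0.914 CPM, adjusted p = 1.1e-05, edgeR). Of the NF-κB list 4 of 14 fell (median -0.35, or 3 called without RLE scaling), and 4 of the 8 mRNA-acting genes fell (median -0.77). Of the other CXC ligands 2 of 5 fell (median -0.71). These were Cxcl10 (-3.04, adjusted p = 0.0088) and Ppbp (-1.10, adjusted p = 0.0027), in edgeR. In the interaction, 0.234% of all genes were called higher in edgeR and the median of all genes was -0.002. There the NF-κB list had positive values for 14 of 14 genes (median 0.46), of which 0 were called in edgeR and 2 in DESeq2. At an unadjusted p under 0.05 there were 7 regardless of size, and 4 of them also passed the fold change threshold. The share of all genes at that unadjusted threshold was not counted, so these counts do not set the list apart. The interaction uses the 2 DMEM samples, and in DMEM + Rux against DMEM 13 of the 14 genes had negative values (median -0.26). Whether the list values hang on either DMEM sample was not tested.

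Finally, the genes with the most similar pattern were found by the Pearson correlation of log2(CPM + 0.5). Over all 16 samples Il1b, the gene for interleukin-1β, was first for both Cxcl1 (r = 0.997) and Cxcl2 (r = 0.997), and Nlrp3, an inflammasome sensor, was at rank 3 for both. The TNF receptor gene Tnfrsf1b was first for Cxcl3 (r = 0.997), and the endoplasmic reticulum oxidase gene Ero1l was first for Cxcl5 (r = 0.994). Over the 11 samples with CM the first genes were Myadm for Cxcl1 (r = 0.97), Denr for Cxcl2 (r = 0.97), Tufm for Cxcl3 (r = 0.99) and Ppme1 for Cxcl5 (r = 0.98), and Lrrc42 and Xpnpep1 were among the first 5 for both Cxcl3 and Cxcl5. The samples share libraries and fall into few groups, so many genes reach such values, and by Spearman's correlation at most 2 of each 5 leading genes were the same.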

How the data were processed

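Gene counts of 16 poly(A) libraries were analysed. Per the labels and methods, the authors trimmed reads (Trimmomatic 0.33), aligned them to GRCm38 (HISAT2 2.1.0) and counted them per gene (featureCounts 1.6.2, mapping quality of at least 10, Ensembl 100 genes), and deposited raw counts. Balb/c reads were thus aligned to a genome of another strain, which could lower counts of divergent genes. Symbols came from GENCODE M21 for 55141 of 55487 genes, and genes without one held at most 0.0459% of a sample's counts.

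Following the study's methods, genes over 1 CPM in at least 2 samples were kept (12372) and scaled by RLE. All 6 groups were fitted in 1 model with edgeR 4.0.16 (R 4.3.3) by its quasi-likelihood test, with Benjamini-Hochberg adjustment. A gene was called at an adjusted p under 0.05 and a log2 fold change beyond 0.5. The fit was tested on simulated counts first. DESeq2 1.42.0 was an alternative. The members and lists were chosen with earlier results of these data known. Named genes were the 4 members in every comparison and the called gene with the largest rise and fall in each list. Further genes could be named from lists with 5 or fewer calls, and the 5 genes most like each member and the protein-coding neighbours within 500 kb were eligible. Csf2 in CM against DMEM, and Cxcl10 where it was not called, were named after their values were seen. The per-length levels on CCDS transcripts were added after the data were seen.

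Replicate numbers come from the sample titles. Deviations from group means correlated between same-numbered samples in 35 pairs (r from -0.0115 to 0.717, median 0.363, 34 pairs over 0.1). In comparisons with 3 pairs all were over 0.1, and there the numbers are taken to pair the samples. Other pairs had a median of -0.124. Deviations within a group sum to 0, which pushes these below 0 where same-numbered pairs are above it, so they are no separate contrast. The pairs share samples and are not independent. Comparisons with DMEM or with the 2 h samples hold fewer pairs. No 2 libraries of a group agreed within sampling noise.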

Additional observations from a re-analysis of the deposited data

How the results depend on the processing

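Each member's 8 log2 fold changes were recomputed under 8 other settings and without each sample. 2 values could not be had, since Cxcl3 and Cxcl5 did not pass the filter with only DMEM and DMEM + Rux in the model. Under the other settings 243 values kept direction and call, 10 gained a call and 1 lost it. Without the filter on low counts calls were gained with IKK-16 against CM + Rux for Cxcl1 (-0.75) and Cxcl2 (-0.77), in DMEM + Rux against DMEM for Cxcl1 (-1.06) and Cxcl2 (-1.03), in the interaction for Cxcl1 (1.47) and Cxcl2 (1.30), and from 2 h to 4 h for Cxcl2 (0.71). With only the groups compared in the model, Cxcl1 (-0.74) gained and Cxcl5 (-1.34) lost its call with IKK-16 against CM + Rux, and Cxcl2 gained one from 2 h to 4 h (0.69). DESeq2 called Cxcl2 with IKK-16 against CM + Rux (-0.77). The cause was not tested. Levels per length in CM moved to 1333, 1219 and 1116 for Cxcl1, Cxcl2 and Cxcl3 with CCDS transcripts, and those in DMEM to 13.4, 30.1 and 1.16, because these transcripts are shorter.

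With the replicate block, which pairs samples by number, no member's call changed, whereas the genes called in CM + Rux against CM went to 305 higher and 440 lower, and those higher in the interaction to 247. With total counts alone 1536 genes were higher and 4605 lower in CM against DMEM, 1700 were higher in CM + Rux against DMEM + Rux, and 49 were higher in the interaction. Without the filter 269 were higher and 416 lower in CM + Rux against CM, and 213 higher in the interaction. The likelihood ratio test gave 225 higher in CM + Rux against CM and 150 in the interaction, and DESeq2 gave 149 in the interaction. Without a fold change threshold 3883 were higher in CM against DMEM, 225 in CM + Rux against CM and 2471 from 2 h to 4 h, and 947 and 1493 were lower with IKK-16 against CM + Rux and against CM.

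Without each sample in turn, 179 member values kept direction and call, 9 changed sign, 4 gained a call and 8 lost it. Where this left 1 sample of DMEM or 2 h, the lone sample is assumed to vary like the other groups. Cxcl3 ran from -0.10 to 0.32 in CM + Rux against CM and from -1.44 to -0.86 with IKK-16 against CM. With IKK-16 against CM + Rux, Cxcl3 ran from -1.52 to -0.99 and Cxcl5 from -1.82 to -0.96. In DMEM + Rux against DMEM, Cxcl1 ran from -1.68 to 0.18, Cxcl2 from -1.59 to -0.055 and Cxcl5 from -0.66 to 1.10. In the interaction Cxcl1 ran from 0.23 to 2.08, Cxcl2 from 0.32 to 1.86 and Cxcl5 from -1.44 to 0.31. The genes called ran from 82 to 164 higher and 161 to 322 lower in CM + Rux against CM, and from 9 to 84 higher in the interaction, where the lowest count came without CM replicate 1 and the highest without DMEM replicate 2. The depth limits Cxcl5 without CM, where each sample held at most 5 reads.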
